A study of Mus musculus with 6 samples.

Results

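The p53 pathway and GADD45 stress genes are 10 genes chosen by name: Trp53, Mdm2, Ccng1, Sesn1, Sesn2, Gadd45a, Gadd45b, Gadd45g, Btg2 and Trp53inp1. A gene was taken as measured where a row of the array carried its symbol and no other, which held for 9 of the 10, each with 1 row, among 19935 genes in all. No row carried the symbol Trp53 alone, so Trp53 itself was not analysed here. Gene expression was measured on 6 single-colour microarrays, 3 per group, in primary keratinocytes of wild-type CD1 mice kept in low-calcium medium. Every culture had been infected with a retrovirus. In the vector control group the virus was the empty MSCV vector, and in the caNFATc1 group it carried a human NFATc1 whose autoinhibitory domain was mutated so that the protein is constitutively active. NFATc1 is a transcription factor normally switched on by calcium through the phosphatase calcineurin. The comparison asks whether the p53 and GADD45 stress genes differ when NFATc1 is active. The share of infected cells is not stated in the labels, and as these are bulk cultures, fewer cells of a kind and less RNA per cell cannot be told apart.

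The p53 protein is a transcription factor that accumulates after DNA damage and other stress and turns on genes for cell cycle arrest, repair and cell death. Mdm2 is both its target and the ubiquitin ligase that destroys it, which closes a feedback loop. Cyclin G1, BTG2, TP53INP1 and the sestrins are encoded by p53 target genes with roles in arrest, autophagy and nutrient sensing, and the GADD45 proteins are small stress-induced partners of the cell cycle and kinase machinery, of which only GADD45A is a classical p53 target. In the epidermis, p53 is best known for the response to ultraviolet light.

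The promoters of 4 of the genes are shown because Ccng1, Gadd45a and Gadd45g had lower values in caNFATc1 cells in all 3 replicate pairs, as described below, and Mdm2 is the feedback partner of p53. Each window runs from 250 bases before the start of the gene to 50 bases into it, 300 bases in all, 5′ to 3′ on the gene's strand, from RefSeq on GRCm38.p6. The windows are chr10:117710709-117711008 (minus strand) for Mdm2, chr11:40755237-40755536 (minus strand) for Ccng1, chr6:67037358-67037657 (minus strand) for Gadd45a and chr13:51846425-51846724 (plus strand) for Gadd45g. Capitals mark the consensus decamer of a p53 half-site, which reads the same in either direction, and the NFAT core GGAAA on either strand (TTTCC on the strand shown).
Mdm2: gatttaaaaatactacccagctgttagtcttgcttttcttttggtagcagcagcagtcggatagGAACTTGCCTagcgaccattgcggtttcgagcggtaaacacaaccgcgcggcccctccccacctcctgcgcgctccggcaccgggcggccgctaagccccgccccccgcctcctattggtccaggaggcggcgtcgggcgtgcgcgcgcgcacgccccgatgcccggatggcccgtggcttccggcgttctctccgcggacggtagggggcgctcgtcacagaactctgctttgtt
Ccng1: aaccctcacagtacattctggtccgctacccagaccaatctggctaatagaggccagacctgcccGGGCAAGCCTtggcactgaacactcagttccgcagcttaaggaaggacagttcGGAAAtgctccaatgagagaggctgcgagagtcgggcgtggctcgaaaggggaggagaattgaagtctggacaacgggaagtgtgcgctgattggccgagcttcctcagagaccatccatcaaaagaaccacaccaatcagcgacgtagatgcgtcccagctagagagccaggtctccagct
Gadd45a: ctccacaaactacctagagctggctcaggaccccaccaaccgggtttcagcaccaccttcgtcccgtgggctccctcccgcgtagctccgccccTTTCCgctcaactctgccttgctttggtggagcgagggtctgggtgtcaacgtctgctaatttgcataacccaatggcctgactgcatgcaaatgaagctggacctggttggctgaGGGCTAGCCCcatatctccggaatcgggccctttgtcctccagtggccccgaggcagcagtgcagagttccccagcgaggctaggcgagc
Gadd45g: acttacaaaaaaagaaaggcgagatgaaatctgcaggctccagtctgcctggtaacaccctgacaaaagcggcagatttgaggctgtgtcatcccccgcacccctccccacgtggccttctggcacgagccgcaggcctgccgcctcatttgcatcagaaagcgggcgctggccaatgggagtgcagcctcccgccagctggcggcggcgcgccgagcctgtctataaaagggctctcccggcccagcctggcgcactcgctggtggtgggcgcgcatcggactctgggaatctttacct
The decamer stood in the windows of Mdm2, Ccng1 and Gadd45a, first base at -186, -185 and -40 from the start, and the window of Gadd45g held neither motif. GGAAA stood in the windows of Ccng1 and Gadd45a, first base at -132 and -156, and no match overlapped a decamer. Of the 10 genes, 9 were in the RefSeq promoter table, with 10 windows, and the decamer was in 5 of these windows and GGAAA in 5. Among all 32851 windows of this length, 8.36% held the decamer and 61.3% held GGAAA. The genes were chosen by name for the p53 pathway, and the shares were not tested against each other. A match describes letters, of a half-site in the case of the decamer, and is not a measured binding site.

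The deposited values are log2 values relative to the median of each row over the 6 arrays, so they give differences between arrays and no level of a gene. Replicate 1 stood apart in both groups: the X-inactivation RNA Xist lay at least 5.97 log2 units below its values on the other arrays, and Eif2s3y, a gene of the Y chromosome, at least 2.99 above. Same-numbered arrays deviated together (r across genes of 0.71, 0.61 and 0.57), so the difference within each same-numbered pair is given beside the group means. Rcan1, a known NFAT target, was higher in caNFATc1 cells by 3.38 ± 0.19 (moderated SE, 3 arrays per group, limma adjusted p = 0.0113). The row of mouse Nfatc1 differed by 0.04 ± 0.09 (adjusted p = 0.917) and may not read the human transgene. The basal keratins Krt5 and Krt14 differed by 0.03 and -0.02 (limma adjusted p = 0.857 and 0.934 with the replicate number as a block). Krt15, another keratin among the keratinocyte markers, differed by -0.58 (limma adjusted p = 0.132 with the block). Its pair differences were -0.58, -0.09 and -1.08.

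None of the 9 measured genes differed between caNFATc1 and vector control cells at an adjusted p under 0.05 over all genes. Limma called 0 of 9 with group as the only term, where it called 0.216% of all genes, and 0 of 9 with the replicate number as a block, where it called 6.11% (3.73% higher and 2.38% lower). At an unadjusted p under 0.05 the counts were 1 of 9 (Gadd45g) without the block, against 12.7% of all genes, and 3 of 9 (Gadd45g, Gadd45a and Trp53inp1) with it, against 21.5%. The differences ran from -0.55 for Gadd45g to 0.37 for Trp53inp1, with a median of -0.06, where the median of all genes was -0.01. Of the 9, 6 had a negative difference, against 52.6% of all genes. The 95% intervals of all 9 lay within a 2-fold change in either direction, with or without the block, as did those of 92.9% and 97% of all genes. These intervals are for single genes and are not adjusted for the number of genes.

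**Figure D1:**
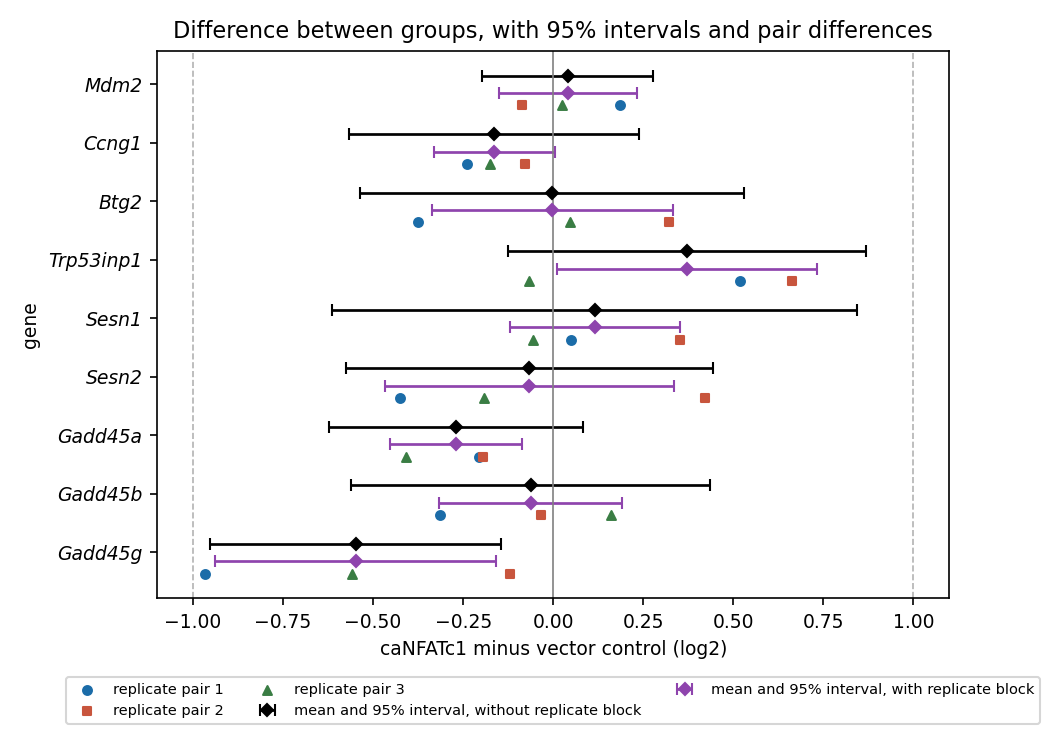
Difference between groups (caNFATc1 minus vector control, log2) for the 9 measured genes, with black diamonds and bars for the mean and 95% interval of the limma fit without the replicate block, purple ones for the fit with it, and coloured symbols for the 3 replicate pairs; dashed lines mark a 2-fold change. Every interval lies inside the dashed lines, and the intervals of Gadd45g in both fits and of Gadd45a and Trp53inp1 with the block leave out 0.

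Mdm2, the inhibitor of p53, had values of 0.01, -0.07 and -0.01 in vector control replicates 1 to 3 and 0.19, -0.16 and 0.02 in caNFATc1 replicates 1 to 3. The groups overlapped, with the highest and the lowest array both in the caNFATc1 group. The difference was 0.04 ± 0.10 (moderated SE, 3 arrays per group, limma adjusted p = 0.920), with a 95% interval from -0.20 to 0.28. Its largest bounds were thus 1.15-fold lower and 1.21-fold higher, the narrowest interval of the 9 genes without the block. With the block the difference was 0.04 ± 0.08 (limma adjusted p = 0.850).

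Ccng1 encodes cyclin G1, which binds the phosphatase PP2A and Mdm2. Its values were -0.22, 0.09 and 0.16 in the vector control arrays and -0.46, 0.02 and -0.02 in the caNFATc1 arrays. Replicate 1 was the lowest array of each group, and the groups overlapped. The difference was -0.16 ± 0.16 (adjusted p = 0.771), and -0.16 ± 0.07 with the block (adjusted p = 0.244), with -0.24, -0.08 and -0.17 in pairs 1, 2 and 3.

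Btg2, an antiproliferative gene whose protein recruits the CCR4-NOT deadenylase to messenger RNA, had values of -0.12, -0.20 and 0.20 in vector control and -0.50, 0.12 and 0.25 in caNFATc1 cells. The caNFATc1 arrays held both the lowest and the highest value. The pair differences, -0.38, 0.32 and 0.05, had both signs, and the mean difference was 0.00 ± 0.22 (adjusted p = 0.998). With the block the SE was 0.14 (limma adjusted p = 0.995). Without the block, the 95% interval ran from -0.54 to 0.53.

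Trp53inp1 encodes a nuclear protein that promotes p53 phosphorylation and takes part in autophagy. It had values of -0.59, -0.51 and 0.14 in vector control and -0.08, 0.15 and 0.08 in caNFATc1 cells. Vector control replicates 1 and 2 lay below every caNFATc1 array, while vector control replicate 3 lay within that group's range. The difference was 0.37 ± 0.20 (adjusted p = 0.536), and 0.37 ± 0.15 with the block (adjusted p = 0.219). Pairs 1 and 2 differed by 0.52 and 0.66 and pair 3 by -0.07. Without replicate 3 of both groups, the pair of opposite sign, the difference was 0.59 ± 0.11 and passed the limma fit with the block (adjusted p = 0.0202). Without that block it did not pass. Without replicate 1 or 2 of both groups Trp53inp1 did not pass with the block (limma adjusted p = 0.450 and 0.589).

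**Figure D2:**
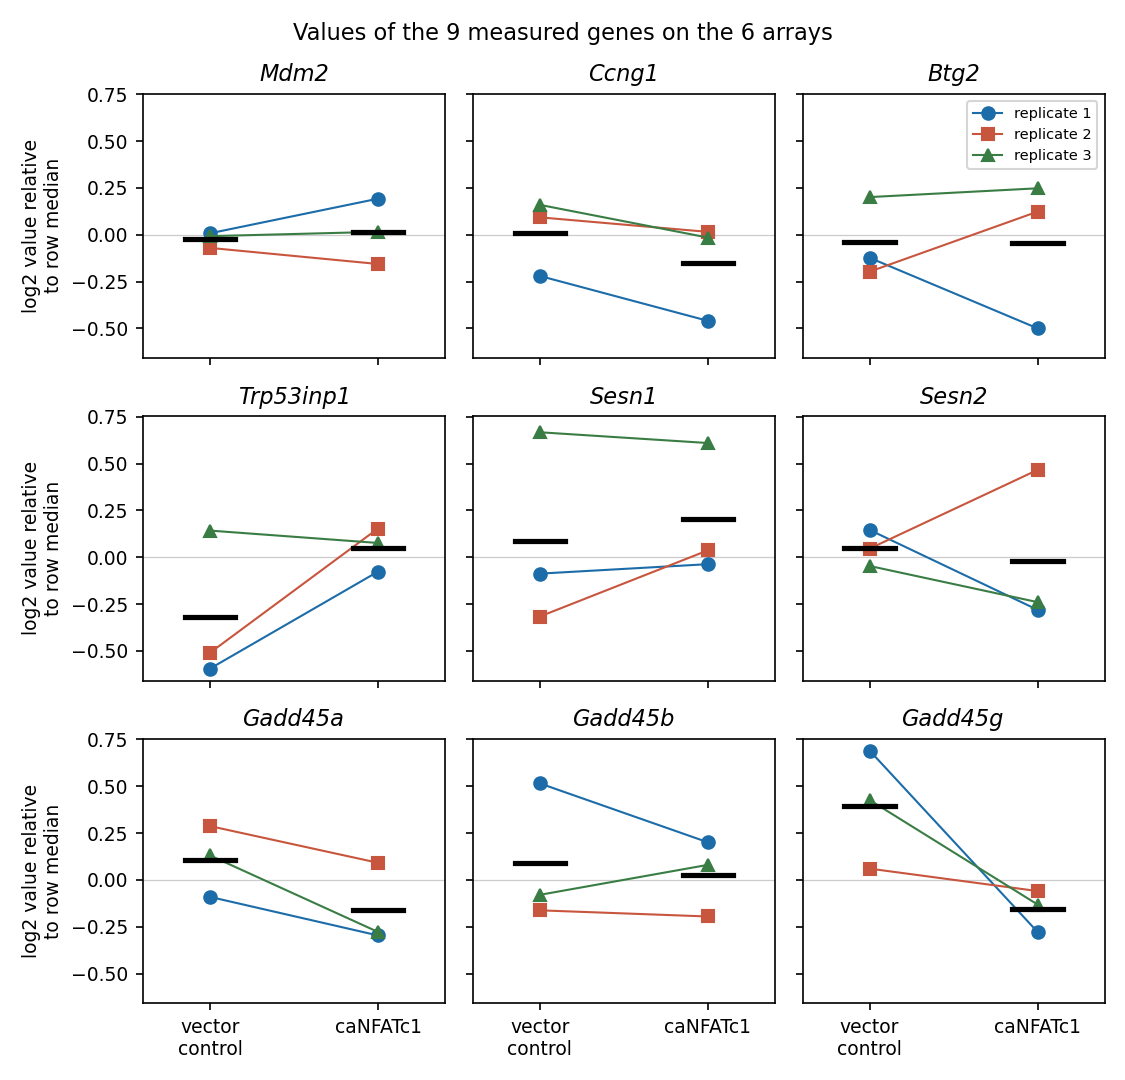
Log2 values relative to the row median on the 6 arrays for each of the 9 measured genes, vector control at the left and caNFATc1 at the right of each panel; lines join arrays with the same replicate number and black bars are group means (n = 3). The lines of Ccng1, Gadd45a and Gadd45g fall in all 3 pairs, and only for Gadd45g do the 2 groups not overlap.

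The sestrins Sesn1 and Sesn2 encode stress-induced inhibitors of mTORC1, the growth kinase complex, and act through the GATOR complexes. Sesn1 had values of -0.09, -0.32 and 0.67 in vector control and -0.04, 0.04 and 0.61 in caNFATc1 cells. Replicate 3 was highest in both groups, and the groups overlapped. The difference was 0.12 ± 0.30 (adjusted p = 0.927), and 0.12 ± 0.10 with the block (adjusted p = 0.585), while the means of the 3 replicate numbers spanned 0.78 log2 units, the widest span of the 9 genes.

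Sesn2 had values of 0.15, 0.05 and -0.05 in vector control and -0.28, 0.47 and -0.24 in caNFATc1 cells. The 3 vector control arrays lay between the 2 lower caNFATc1 arrays and the highest one. The pair differences were -0.43, 0.42 and -0.19, with a mean of -0.07 ± 0.21 (adjusted p = 0.944), and -0.07 ± 0.16 with the block (adjusted p = 0.886). The changes of Sesn1 and Sesn2 differed by 0.18 (2-sided exact permutation test over the 6 arrays, p = 0.8, adjusted over 4 such comparisons p = 0.8), where 3 arrays against 3 cannot give a p below 0.1.

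The 3 GADD45 genes encode small proteins that bind PCNA, the CDK1-cyclin B1 complex and the stress kinase MAP3K4. Gadd45g had the largest difference of the 9 genes. Its values were 0.69, 0.06 and 0.43 in vector control and -0.28, -0.06 and -0.13 in caNFATc1 cells. All caNFATc1 arrays lay below all vector control arrays, a pattern that 9.09% of all genes had (9.64% had the opposite one), and the gap was narrowest in pair 2. The difference was -0.55 ± 0.16 (1.46-fold lower, 95% interval -0.95 to -0.15), with pair differences of -0.97, -0.12 and -0.56. It did not pass over all genes (limma adjusted p = 0.247, and 0.111 with the block). Without replicate 2 of both groups the difference was -0.76 ± 0.13 and passed with the block (limma adjusted p = 0.0375). A larger absolute difference was found in 4.8% of all genes.

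Gadd45a had values of -0.09, 0.29 and 0.13 in vector control and -0.30, 0.09 and -0.28 in caNFATc1 cells. Each caNFATc1 array lay below its same-numbered control, but the groups overlapped because caNFATc1 replicate 2 was higher than vector control replicate 1. The difference was -0.27 ± 0.14 (adjusted p = 0.525), and -0.27 ± 0.07 with the block (adjusted p = 0.102). The pair differences were -0.21, -0.20 and -0.41. Ccng1, Gadd45a and Gadd45g were the 3 of 9 genes that were lower in all 3 pairs, as were 21.3% of all genes, and 0 of 9 were higher in all 3 pairs, as were 21.6%.

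Gadd45b had values of 0.51, -0.16 and -0.08 in vector control and 0.20, -0.20 and 0.08 in caNFATc1 cells. Replicate 1 was highest in both groups. The difference was -0.06 ± 0.20 (adjusted p = 0.947), and -0.06 ± 0.10 with the block (adjusted p = 0.820). The pair differences were -0.31, -0.03 and 0.16. The change of Gadd45b exceeded that of Gadd45g by 0.49, and by 0.65, 0.09 and 0.72 in the 3 pairs, which gave the smallest p that the 2-sided exact permutation test allows, 0.1 (adjusted p = 0.4). Gadd45a differed in its change from Gadd45b by -0.21 and from Gadd45g by 0.28 (exact p = 0.8 and 0.5, adjusted p = 0.8 for both, sign-flip p = 0.5 for both).

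The range of the means of the 3 replicate numbers was larger than the size of the group difference for 8 of 9 genes, and for 70.9% of all genes. A range over 3 means tends to exceed a difference between group means even where neither effect is present. The count is thus no trait of these 9 genes. For Btg2 and Gadd45b the means of the replicate numbers spanned 0.54 each, against group differences of 0.00 and -0.06. Gadd45g was the exception, with a range of 0.21. Without replicate 1 of both groups, 4 of the genes changed the sign of their difference, Mdm2 to -0.03, Sesn2 to 0.11, Gadd45b to 0.06 and Btg2 to 0.18. Gadd45g, Gadd45a, Ccng1, Sesn1 and Trp53inp1 kept theirs, at -0.34, -0.30, -0.13, 0.15 and 0.30, and 0 of the 9 passed limma without replicate 1, with or without the block.

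**Figure D3:**
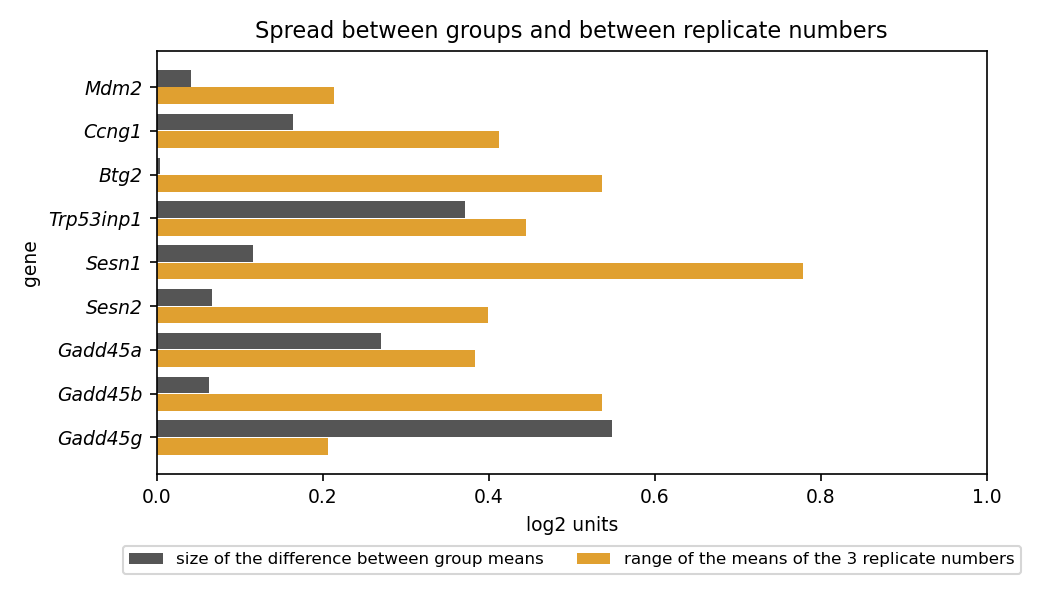
Size of the difference between group means (grey bars) and range of the means of the 3 replicate numbers (orange bars), in log2 units, for the 9 measured genes. The orange bar is longer for every gene but Gadd45g, a pattern that 70.9% of all genes had.

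Around the 9 genes, 8 lists of pathway genes and partners were examined, with 115 of 123 genes measured. Without the replicate block, limma called 0 of the 115, against 0.216% of all genes. At an unadjusted p under 0.05 there were 23 in that fit, against 12.7% of all genes. With the block it called 9 higher and 7 lower. This is 13.9% of the listed genes, against 6.11% of all genes. The lists were chosen with earlier results of these data known, so this excess cannot be read as enrichment. The same holds for the sign counts of single lists below. Of the 16, 5 were also called without replicate 1 of both groups, 6 without replicate 2 and 8 without replicate 3, fits that each rest on 2 pairs. Nupr1, Ccng2, Slc7a11 and Psrc1 were called in all 3 of these settings, and 6 of the 16 in none of them. Those 6 were Trp63, Hipk2, Hus1, Prmt1, Sesn3 and Cebpb. In what follows a gene is said to rise or fall where it passed the fit with the block, and its brackets give limma's SE and adjusted p in that fit. By this rule 3.73% of all genes rose and 2.38% fell.

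Of 18 measured relatives and regulators of p53, 2 rose and 1 fell, with a list median of 0.08. Ppm1d, the phosphatase WIP1 that switches off p53 and the damage kinases, fell by 0.54 (± 0.09, adjusted p = 0.0347, and 0.269 without the block). Its arrays were 0.05, 0.27 and 0.31 in vector control and -0.68, -0.05 and -0.26 in caNFATc1 cells. The groups thus did not overlap, as for 9.09% of all genes in this direction. Trp63, the p53 relative that maintains the epidermis, rose by 0.42 (± 0.08, adjusted p = 0.0444, and 0.322 without the block). Hipk2, a kinase that phosphorylates p53, rose by 0.36 (± 0.07, adjusted p = 0.0456, and 0.211 without the block). Both had positive differences in every pair, and neither was called in a fit that left out a replicate of both groups. Mdm4, the partner of Mdm2, differed by 0.18 (± 0.08, adjusted p = 0.308).

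Most damage sensors and kinases had lower values in caNFATc1 cells. Of 16 measured, 15 had a negative difference, against 52.6% of all genes, and 2 fell. Because of how the lists were chosen, this sign count is no test of the pathway. The list median was -0.21. Mre11a, the nuclease of the complex that detects DNA breaks, fell by 0.49 (± 0.08, adjusted p = 0.0304), with pair differences of -0.64, -0.45 and -0.36. Hus1, a part of the checkpoint clamp, fell by 0.35 (± 0.07, adjusted p = 0.0460). The list medians were -0.31, -0.24 and -0.14 in pairs 1, 2 and 3, where those of all genes were -0.06, 0.02 and 0.01.

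Among 15 p53 target genes of cell death, 0 passed with or without the block, and the median was -0.15. The differences ran from -0.37 to 0.26, and 12 were negative, against 52.6% of all genes. Limma's unadjusted p was under 0.05 for 0 without the block, against 12.7% of all genes, and for 3 with it, against 21.5%. Ei24 and Trp53i11, the 2 with the lowest p without the block, differed by -0.10 ± 0.07 and -0.37 ± 0.24 (limma adjusted p = 0.602 and 0.614). Bbc3, which encodes the death protein PUMA, differed by 0.01 and Perp, a p53 target and desmosomal protein, by -0.01.

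Of 19 measured p53 targets of arrest, repair and metabolism, 2 rose and 1 fell, with a median of 0.05. Ccng2, the cyclin G2 gene and relative of Ccng1, rose by 0.60 (± 0.06, adjusted p = 0.0116, and 0.370 without the block), by 0.64, 0.55 and 0.62 in the 3 pairs, while Ccng1 had negative differences in all of them. Gpx1, a glutathione peroxidase, rose by 0.52 (± 0.09, adjusted p = 0.0310). Psrc1, a spindle protein gene, fell by 0.77 (± 0.09, adjusted p = 0.0154), by 1.00, 0.67 and 0.65 in the pairs. The row of the CDK inhibitor gene Cdkn1a also carried another symbol, so the best-known p53 target was not analysed here.

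Of 6 measured binding partners of the GADD45 proteins, limma called 0 with or without the block. Its unadjusted p was under 0.05 for 4 with the block, against 21.5% of all genes, and for 3 without it, against 12.7%. Cdk1, the mitotic kinase, differed by -0.55 ± 0.11 (adjusted p = 0.0527 with the block) and Pcna, the replication clamp, by -0.36 ± 0.10 (adjusted p = 0.103 with the block). Both had values below every vector control array in each caNFATc1 array, as had Gadd45g and 9.09% of all genes. Map3k4, the stress kinase gene, went the other way, with a difference of 0.25 ± 0.07 (adjusted p = 0.103 with the block), positive in all 3 pairs. Its caNFATc1 arrays all lay above every vector control array, as did those of 9.64% of all genes. How far the share of dividing cells bears on these values was not tested.

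Of 9 measured genes of the BTG and TOB family and the CCR4-NOT deadenylase, 1 rose and 1 fell. Btg1, the closest relative of Btg2, rose by 0.52 (± 0.10, adjusted p = 0.0440), with values of -0.33, -0.50 and -0.13 in vector control and 0.33, 0.16 and 0.13 in caNFATc1 cells. The groups of Btg1 did not overlap, as for 9.64% of all genes in this direction, where those of Btg2 did. Prmt1, an arginine methyltransferase that binds BTG proteins, fell by 0.36 (± 0.07, adjusted p = 0.0415).

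Of 17 measured genes around the sestrins and their mTORC1 nutrient pathway, 16 had a positive difference and 1 a negative one, against 52.6% negative among all genes. Limma's unadjusted p was under 0.05 for 1 without the block, against 12.7% of all genes, and for 4 with it, against 21.5%. The list median was 0.09, and Sesn3 was the 1 gene that rose. Sesn3, the relative of Sesn1 and Sesn2, rose by 0.32 (± 0.06, adjusted p = 0.0434), by 0.32, 0.32 and 0.33 in the 3 pairs. Its arrays were 1.18, -0.55 and -0.16 in vector control and 1.50, -0.22 and 0.16 in caNFATc1 cells, so the groups overlapped widely, and without the block its adjusted p was 0.895. Its call rests on the pairing of the arrays.

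Of 15 genes of the ATF4 stress response, a pathway that induces Sesn2 in other cells, 3 rose and 2 fell, with a median of 0.11. Nupr1, a stress-induced chromatin protein gene, rose by 2.57 (± 0.16, adjusted p = 0.00382, and 0.198 without the block), by 2.66, 2.11 and 2.95 in the pairs. Slc7a11, the cystine transporter gene, fell by 0.91 (± 0.10, adjusted p = 0.0118) and the transcription factor gene Cebpb by 0.43 (± 0.07, adjusted p = 0.0310). Atf3, also induced by p53, rose by 0.47 (± 0.07, adjusted p = 0.0219, and 0.820 without the block). The genes called in this list had both directions, and Sesn2 had both signs among its pairs.

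**Figure D4:**
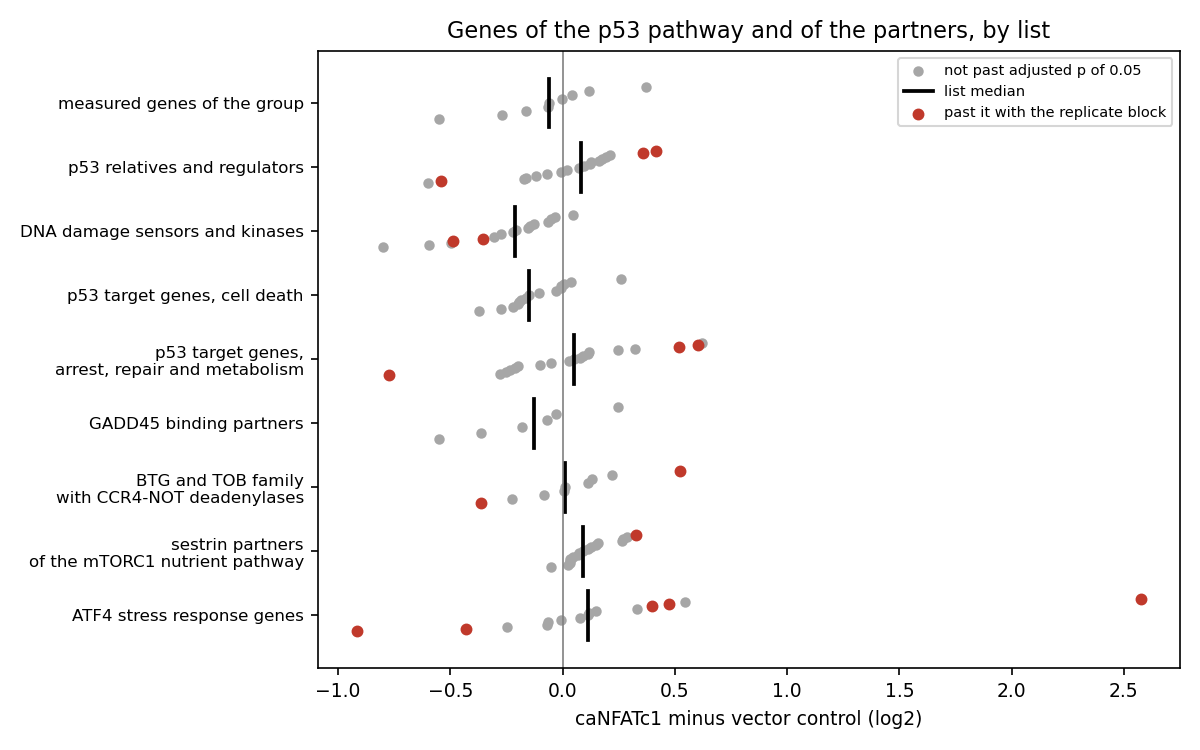
Difference between groups (caNFATc1 minus vector control, log2) for each measured gene of the group and of the 8 lists around it; each point is a gene, red points passed an adjusted p of 0.05 with the replicate block, and black lines are list medians. No point of the group itself is red, and the damage sensors and kinases lie mostly left of 0.

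Markers of other cells that the cultures could hold were examined beside these results. Of 10 measured fibroblast markers, 6 had a positive and 4 a negative difference, with a list median of 0.06. The list medians were -0.14, -0.0012 and 0.39 in pairs 1, 2 and 3. Col3a1 was the 1 that rose, by 1.20 (± 0.19, limma adjusted p = 0.0296 with the block). The mean value of the list over its genes ran from -0.10 to 0.06 on the vector control arrays and from 0.01 to 0.54 on the caNFATc1 arrays. Of 10 keratinocyte markers, Trp63 was the 1 that passed with the block. Of 8 melanocyte, 8 immune and 6 endothelial markers, limma called 0 with and without the block. In either fit 0 had an unadjusted p under 0.05, against 21.5% of all genes with the block and 12.7% without it. The part of such cells in the values of the p53 and GADD45 genes was not tested.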

How the data were processed

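RNA of 6 cultures was labelled with biotin and hybridised to single-colour arrays. The authors deposited 1 table of 28815 rows of log2 values; per the submitters' processing notes, RMA and the build mm8 were used, with no version given. Every row's median over the 6 arrays was 0 within 1e-06, so brightness is not kept, no filter on dim rows was possible, and base 2 was taken because RMA gives it. The array number limits precision. Rows were named through the platform annotation (21780 with 1 symbol, 1605 with several, 5430 not listed), and rows of a gene were averaged, giving 19935 genes.

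Groups and replicate numbers come from the sample titles, and the series design calls the replicates biological. Differences are caNFATc1 minus vector control, fitted with limma 3.58.1 (R 4.3.3; lmFit, eBayes, 2-sided, Benjamini-Hochberg adjusted p under 0.05 over all genes), with group as the only term. Arrays of equal number deviated from their groups' means together (r across genes 0.71, 0.61 and 0.57, each over the limit of 0.1). They were treated as pairs, and a second fit added the replicate number as a block. Changes within a family were compared with exact permutation tests over arrays and with sign-flip tests over the pair differences. The scripts were tested on simulated data. Other settings were array medians set to 0, quantile normalization, robust eBayes, the highest row per gene, and arrays or pairs left out.

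The genes and lists were chosen with earlier results of these data known. From each list, up to 4 genes past the test in either fit were named, lowest adjusted p with the block first, or the 2 with the lowest p where none passed. Mdm4, Map3k4, Bbc3, Perp, Krt5, Krt14, Krt15, Col3a1, Cdkn1a, Rcan1, Nfatc1, Xist and Eif2s3y were named beside this rule, after their values were seen. H2afx was matched to its current symbol.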

Additional observations from a re-analysis of the deposited data

How the results depend on the processing

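Over 17 alternative settings, the 9 genes gave 153 values, of which 2 passed an adjusted p of 0.05 and 21 turned their sign. The 2 were Gadd45g with the replicate block and without replicate 2 of both groups (-0.76, adjusted p = 0.0375) and Trp53inp1 with the block and without replicate 3 (0.59, 0.0202). Btg2 turned to 0.0024 with array medians set to 0 and 0.047 with quantile normalization. The other 19 sign changes came from leaving out arrays. Without replicate 1 of both groups, with or without the block, Mdm2 was -0.031, Sesn2 0.11, Gadd45b 0.064 and Btg2 0.18, and without replicate 2 Sesn1 was -0.0035. With a vector control array left out, the difference ran from -0.087 to 0.41 for Sesn1, -0.19 to 0.15 for Gadd45b and -0.082 to 0.12 for Btg2. With a caNFATc1 array left out it ran from -0.047 to 0.13 for Mdm2, -0.088 to 0.24 for Sesn1, -0.31 to 0.065 for Sesn2, -0.15 to 0.050 for Gadd45b and -0.15 to 0.23 for Btg2. Ccng1, Gadd45a, Gadd45g and Trp53inp1 kept their sign, within -0.28 to -0.011, -0.40 to -0.18, -0.76 to -0.34 and 0.23 to 0.60. The change of Gadd45a minus that of Gadd45b ran from -0.52 to 0.0083 with a vector control array left out, and that of Sesn1 minus Sesn2 from -0.019 to 0.52, or from -0.13 to 0.51 with a caNFATc1 array left out. Over all genes 43 were called, 1219 with the replicate block, 169 with quantile normalization, 0 to 6 and 2 to 83 without a vector control or a caNFATc1 array, 31, 2 and 0 without pair 1, 2 or 3, and 711, 743 and 1086 with the block as well. The higher calls were 95.3% of the 43 and 61% with the block. Of the 115 listed genes 0 were called, 16 with the block, and 5, 7 and 14 with the block and without pair 1, 2 or 3. Causes were not tested, except that fits with fewer arrays have less precision by construction. No filter on dim rows could be run. On all 6 arrays the block changed no call among the 9 genes, while with pairs left out it made the 2 calls of Gadd45g and Trp53inp1 named above (adjusted p = 0.352 and 0.420 without it).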
